A study of Homo sapiens with 3 samples.

Results

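Solute carriers are membrane proteins that move ions, sugars, amino acids, nucleotides, metals and drugs across cell membranes, and the peaks described here are those that the authors' annotation assigned to a gene of this kind. A peak was included when one of its gene symbols was SLC followed by a family number, a letter and a member number, and when it lay on an autosome. Of 22874 peaks in replicate 1, 436 met this rule, as did 301 of 17285 in replicate 2. Together they named 155 carrier genes, 147 in replicate 1 and 121 in replicate 2. The rule passed over 12 other autosomal symbols that begin with SLC, among them the organic anion transporter gene SLCO3A1 and the pseudogene SLC7A5P1, and it left out 43 peaks of carriers on the X and Y chromosomes in each replicate.

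The peaks came from chromatin immunoprecipitation and sequencing of YBX1 in HEL, an established human erythroleukaemia cell line that carries the JAK2-V617F mutation. Cells of both replicates were grown without drug, crosslinked with formaldehyde and precipitated with an antibody against YBX1, and each library was called against the same input chromatin. The 2 YBX1 libraries formed 1 group, with no mock precipitation, other cell line or perturbed YBX1 analysed here, and the labels do not say whether they came from separate cultures. The caller kept 10010819 tags in replicate 1, 9926271 in replicate 2 and 74780414 in the input. No marker of the cell type could be checked, since no RNA was measured.

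YBX1 (YB-1) is a nucleic acid binding protein with a cold-shock domain. It was first described by its binding to the CCAAT-containing Y-box of promoters, and it also binds RNA. Solute carrier families are numbered by relatedness, so that SLC2 holds facilitative glucose transporters, SLC6 sodium-coupled neurotransmitter and amino acid transporters, SLC22 organic ion transporters and SLC25 mitochondrial carriers. In red cell precursors, SLC4A1 encodes the band 3 anion exchanger and SLC25A37 the mitochondrial iron importer mitoferrin-1.

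The sequence around carrier start sites is shown first, because 3 carriers had a shared region classed as promoter in both replicates. RefSeq (GRCh38.p14) windows from 250 bases before to 50 bases after the start were matched for 116 of the 155 carriers, and for SLC13A2 (chr17:28473394-28473693, plus strand) and SLC26A8 (chr6:36024592-36024891, minus strand) of those 3. Capitals mark single copies of the letters ATCC or the reverse complement GGAT. In tandem, ATCC was the most frequent repeat unit under carrier peaks.
SLC13A2: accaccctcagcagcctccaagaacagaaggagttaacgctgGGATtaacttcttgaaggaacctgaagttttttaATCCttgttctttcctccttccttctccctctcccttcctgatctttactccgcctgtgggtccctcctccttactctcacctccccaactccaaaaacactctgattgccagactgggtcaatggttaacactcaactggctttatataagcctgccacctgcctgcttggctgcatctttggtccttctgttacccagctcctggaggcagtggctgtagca
SLC26A8: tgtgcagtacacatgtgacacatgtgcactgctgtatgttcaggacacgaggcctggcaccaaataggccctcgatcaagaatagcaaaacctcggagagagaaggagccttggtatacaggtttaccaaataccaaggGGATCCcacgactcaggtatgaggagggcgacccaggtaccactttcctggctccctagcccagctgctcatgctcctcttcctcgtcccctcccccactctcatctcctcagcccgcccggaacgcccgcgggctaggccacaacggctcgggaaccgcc
Each window held 2 single matches to ATCC, apart from each other in SLC13A2 and overlapping as GGATCC in SLC26A8. The count of single matches over all windows was not computed, so these matches do not show a tandem repeat at either start. Neither window held CCAAT or ATTGG. The peaks are placed on hg19, so whether a peak lies within these GRCh38 windows was not examined. In replicate 1 the detailed label of the SLC26A8 peak was intron 1 of 19, so it may lie outside the window. Among all 395 windows of 285 autosomal carriers, none held AGATAGATAGAT, ATCCATCCATCC, ACCACCACCACC or ACCATCACCATC in any rotation on either strand. Over all 35116 windows of that length the shares were 0.0142%, 0.0513%, 0.117% and 0.0285%. At shares this low, 395 windows are too few to tell an absence in carriers from the background. CCAAT or its reverse complement ATTGG occurred in 129 of the carrier windows (32.7%), against 34.6% of all windows. Rotations of these motifs overlap one another, and a match is only a run of letters.

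The carrier peaks lay mostly outside genes. In replicate 1, 272 of 436 were intergenic (62.4%, 95% Wilson interval 57.7 to 66.8), 156 lay in introns, 5 at promoters and 3 in exons. Replicate 2 had 190 of 301 intergenic (63.1%, 57.5 to 68.4), 103 in introns, 3 at promoters and 5 in exons. The share inside a gene was therefore 37.6% and 36.9%, against 42.7% and 42.1% of the other autosomal peaks, and against 54.3% and 53.3% of those others that name any gene. Promoters held 1.15% (0.491 to 2.66) and 0.997% of the carrier peaks, against 3.36% and 3.49% of the others. Each interval covers counting error only, and no test was made because peaks of 1 library are not replicates.

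For an intergenic peak the annotation lists neighbouring genes, and this enters every count of carriers. Of the carrier peaks, 54.4% and 56.5% named more than 1 gene, against 24.1% and 25.3% of the other peaks. A peak that names many genes has more chances to name a carrier. Intergenic carrier peaks named a median of 4 genes in each replicate, with up to 23 and 20, while the other intergenic peaks that name a gene had a median of 2. Only 36 of 272 and 20 of 190 intergenic carrier peaks named a single gene. Among carrier peaks that named 1 gene, 81.9% and 84.7% lay inside it. A carrier named for an intergenic peak is thus a neighbour at a distance that the lists do not give.

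Simple tandem repeats lay under 212 carrier peaks of replicate 1 (48.6%, 44.0 to 53.3) and 183 of replicate 2 (60.8%, 55.2 to 66.1). The other autosomal peaks had 49.7% and 57.5%, both within those intervals. The tetranucleotide ATCC, written TCCA or TGGA in the lists, was the most frequent unit, with 95 peaks (21.8%) and 77 peaks (25.6%), against 20.1% and 21.6% of the others and 22.5% and 24.5% of those that name a gene. The tetranucleotide AGAT, written TAGA or TCTA, followed with 74 (17.0%, 13.7 to 20.8) and 62 (20.6%). Its share was 21.9% and 27.0% of all other autosomal peaks, but 18.6% and 23.1% of those that name a gene. Both orientations of each unit were present, with 50 TCCA and 45 TGGA peaks and 42 TAGA and 32 TCTA peaks in replicate 1.

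The trinucleotide ACC showed how a single locus can set a share. It had 20 peaks in replicate 1 (4.59%) and 22 in replicate 2 (7.31%), against 2.69% and 2.98% of the other peaks. Of these, 9 and 16 lay at 1 locus near SLC30A4, a zinc transporter gene. Without that locus, 11 of 426 (2.58%, 1.45 to 4.56) and 6 of 284 (2.11%, 0.972 to 4.53) remained. The SINE class, short interspersed elements, had 29 carrier peaks (6.65%, 4.67 to 9.39) and 19 (6.31%), against 4.14% and 3.52%. These were weak peaks, with a median of 6 tags in each replicate, the same as the other SINE peaks. Of the carrier SINE peaks, 34.5% and 68.4% (46.0 to 84.6) overlapped a peak of the other replicate, against 31.1% and 48.9% of the other SINE peaks. HAL1-2a_MD, an old LINE element, had 15 (3.44%) and 8 (2.66%), against 3.42% and 3.44% of the others. No repeat label was given for 115 (26.4%) and 60 (19.9%), against 26.6% and 21.9%.

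**Figure D1:**
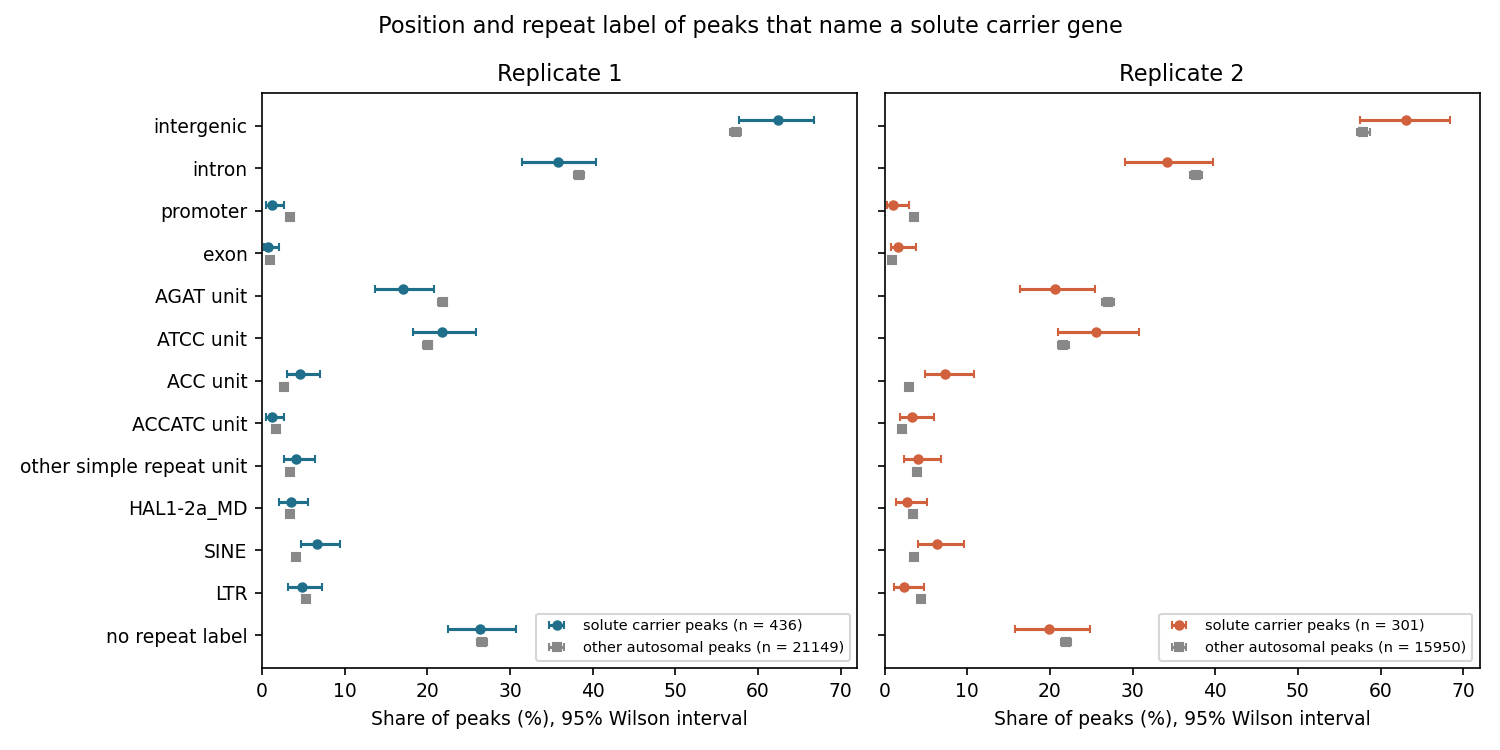
Share of peaks in percent (x axis) by position class and repeat label (y axis) in replicates 1 and 2, for carrier peaks (coloured, n = 436 and 301) and the other autosomal peaks (grey), with 95% Wilson intervals as bars. Intergenic carrier peaks sit at 62.4% and 63.1%, and the ACC share of 7.31% in replicate 2 falls to 2.11% without the SLC30A4 locus, which is not removed in the plot.

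Most carrier peaks were small. The median was 8 tags in replicate 1 (range 5 to 857) and 9 in replicate 2 (range 5 to 588), and the median width was 72 bp and 73 bp. The other autosomal peaks were much alike, with medians of 9 and 8 tags and of 70 bp and 69 bp. Carrier peaks held 8394 tags over 46312 bp in replicate 1 and 5290 tags over 31096 bp in replicate 2, which is 0.0838% and 0.0533% of the tags kept. The median fold enrichment was 53.9 and 54.4, the same as over the other autosomal peaks, and fold enrichment is the authors' own value for each peak. Where the input did not exceed the genome-wide level, the fold is a whole tag height divided by that level. Of the carrier peaks, 27.8% and 26.6% were of this kind, against 36.4% and 34.7% of the others. Such folds take few values, so equal medians do not show that carrier peaks are like the rest.

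Sharing between the replicates was read in both directions, since replicate 2 had the shorter list. Of the replicate 1 peaks, 232 of 436 overlapped a replicate 2 peak by at least 1 bp (53.2%, 48.5 to 57.8), against 53.8% of the other autosomal peaks. Of the replicate 2 peaks, 250 of 301 overlapped a replicate 1 peak (83.1%, 78.4 to 86.9), against 77.3%, which lies below that interval. Neighbouring peaks of 1 locus are not independent, as at SLC30A4, where all 17 replicate 2 peaks were shared, and the interval does not cover this. Shared peaks were the stronger ones, with a median of 14.5 tags against 6 for the rest in replicate 1, and 11 against 5 in replicate 2. Among the other autosomal peaks the medians were 14 against 6 and 10 against 6.

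Sharing followed the tag count. In replicate 1, 20 of 91 carrier peaks with 5 tags were shared (22.0%), then 30.5% of those with 6 to 8 tags, 64.1% with 9 to 15, 93.8% with 16 to 50, and all 30 with more than 50. The other peaks gave 18.3%, 33.5%, 65.6%, 93.4% and 99.0% in the same ranges. In replicate 2 the carrier shares were 54.3%, 80.3% and 93.7%, and then all 83 and all 9 peaks of the 2 highest ranges. The other peaks gave 48.8%, 71.8%, 89.8%, 96.9% and 98.3%. A peak of 5 tags called in 1 list and not in the other is therefore not shown to be absent from the other library.

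**Figure D2:**
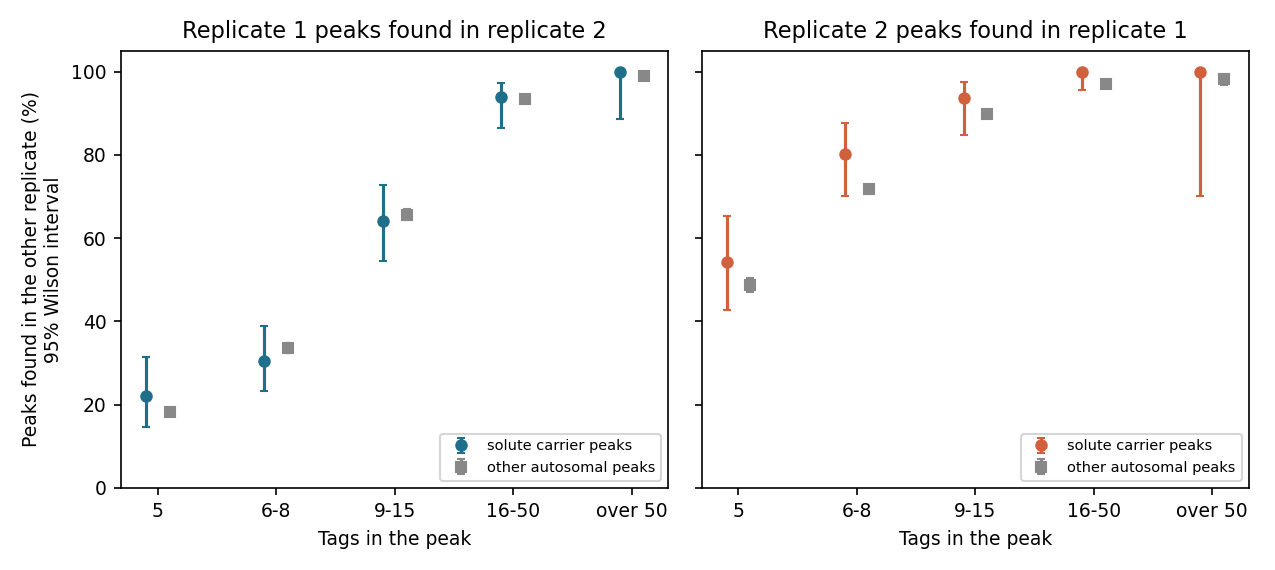
Percent of peaks that overlap a peak of the other replicate (y axis) by tags in the peak (x axis), for carrier peaks (coloured) and other autosomal peaks (grey), with 95% Wilson intervals as bars. In replicate 1 the carrier share goes from 22.0% at 5 tags to 100% above 50 tags, close to the grey points in each range.

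The repeat label went with sharing in the same way. AGAT peaks, which had a median of 17.5 tags in replicate 1, were shared in 82.4% and 91.9% of cases. Among the other autosomal peaks, AGAT peaks were shared in 84.5% and 95.5%. ATCC peaks were shared in 68.4% and 90.9%, against 63.0% and 89.9% of the others, with a median of 11 tags in replicate 1. Peaks without a repeat label had a median of 7 and 6 tags, and 39.1% and 61.7% of them were shared, against 35.0% and 57.6%. Among AGAT, ATCC and unlabelled peaks the order was thus that of the lists as a whole. Rarer labels did not all keep it. In replicate 2 all 22 ACC carrier peaks were shared, above AGAT, while the other ACC peaks (88.9%) lay below the other AGAT peaks. Whether the repeat or the tag count goes with sharing was not tested apart.

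Overlapping peaks were merged into 202 shared regions that name a carrier, of 10278 such regions on the autosomes. All 202 had the same position class in both lists and 173 had the same repeat label. They comprised 130 intergenic regions, 68 in introns, 3 at promoters and 1 in an exon. By the replicate 1 label, 130 lay on a simple tandem repeat: 60 on AGAT, 50 on ATCC, 10 on ACC, 3 on ACCATC and 7 on other units. Of the 10076 other autosomal shared regions, 3803 lay on AGAT, 2252 on ATCC, 464 on ACC or ACCATC and 308 on other units. AGAT thus had a smaller share of the carrier regions than of the others, but those others include regions that name no gene. The share over other regions that name a gene was not computed. Among peaks, AGAT made up 17.0% and 20.6% of carrier peaks, against 18.6% and 23.1% of the others that name a gene. AGAT regions had a median of 20 tags in replicate 1 and 18 in replicate 2 at their strongest peak, ATCC regions 17.5 and 14, ACC regions 31.5 and 14, and ACCATC regions 93 and 37. Joining regions at most 1000 bp apart gave 142 loci, of which 99 held 1 region and 43 held the other 103.

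Tags were concentrated at few of these regions. The strongest region held 12.4% of the tags of all 202 in replicate 1 and 12.6% in replicate 2, and the 15 strongest held 41.5% and 41.4%. Regions were ranked by the lower of the tag counts of their strongest peaks in the replicates, so that the rank rests on both libraries. Where the caller split a region into several peaks, its sums are given beside the strongest peaks.

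The strongest region lay between genes on chromosome 21 near SLC37A1, which encodes a sugar phosphate exchanger, and PDE9A, a phosphodiesterase gene. At chr21:44048385-44050033 (hg19), on a TAGA repeat, its strongest peaks held 857 tags in replicate 1 and 588 in replicate 2, with fold enrichments of 134.87 and 136.55, and its sums were 857 and 629. A second region, chr21:44050043-44050188, adjoined it with 34 and 21 tags. Further along, chr21:44054858-44055857 held 4 regions with 134 and 97 tags in sum, each with an ATCC label in at least 1 list. All 6 regions were intergenic, so no shared region lay inside SLC37A1 itself.

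The second locus lay inside a gene. SLC22A12 encodes the urate transporter URAT1 of the kidney, and an intronic TGGA repeat held shared regions at chr11:64362054-64363012 and chr11:64363014-64363957. The first held 362 and 224 tags at its strongest peaks (fold 221.76 and 190.1) and 362 and 251 in sum. The second held 225 and 196 at its strongest peaks (fold 193.02 and 138.34) and 284 and 196 in sum. With a weak neighbour of 6 and 6 tags, the locus spanned 1981 bp and summed to 652 tags in replicate 1 and 453 in replicate 2. The adjacent gene SLC22A11, for the organic anion transporter OAT4, had a promoter region on HAL1-2a_MD, and 4 weaker regions between them named both genes. The strongest of those 4, chr11:64349460-64349748 on a CCA repeat, held 54 and 28 tags in sum.

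SLC5A3 encodes a sodium-coupled myo-inositol transporter. Its strongest region, chr21:35398547-35399288 on a TCTA repeat, held 249 and 185 tags (fold 101.98 and 115.9). The adjoining chr21:35398373-35398507 held 67 and 48, and chr21:35375550-35375903 held 90 and 68 in sum (65 and 44 at its strongest peaks), also on TCTA. The same annotation named MRPS6 and LINC00649 for the strongest region, and all 3 regions were intergenic.

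The SLC30A4 locus was built differently. SLC30A4 exports zinc from the cytosol, and 7 adjoining shared regions at chr15:45753600-45756216 spanned 2617 bp of CCA repeat and a HAL1-2a_MD element. They held 447 tags in 10 peaks of replicate 1 and 305 tags in 17 peaks of replicate 2. In the largest, chr15:45754990-45756216, 2 peaks of replicate 1 (250 tags in sum) faced 8 peaks of replicate 2 (187 tags in sum). The strongest single peak there held 160 tags in replicate 1 and 40 in replicate 2, so the ratio of strongest peaks was far from the ratio of sums. The region with the highest rank at this locus was chr15:45753993-45754292, with 51 and 44 tags. It was intergenic and named 6 genes, among them GATM and C15orf48.

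**Figure D3:**
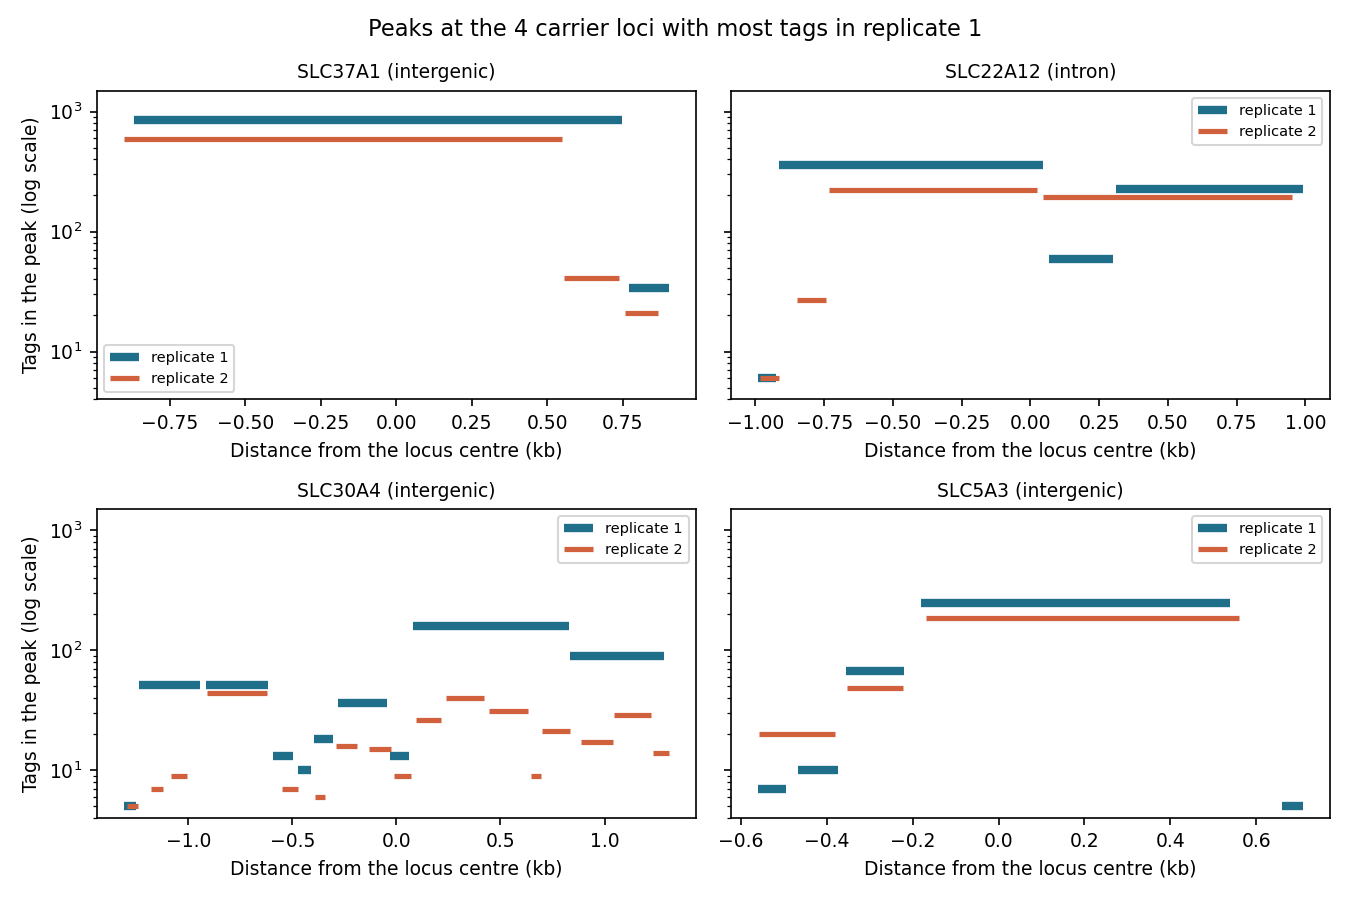
Peaks of replicate 1 (blue, thick) and replicate 2 (orange, thin) at the 4 carrier loci with most tags, drawn from start to end as distance from the locus centre in kb (x axis) against tags in the peak on a log scale (y axis). At SLC30A4 17 replicate 2 peaks face 10 replicate 1 peaks over 2617 bp, while at SLC37A1 and SLC5A3 the strongest peaks of the replicates overlap over most of their length.

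Other strong regions lay at carriers of amino acids, organic ions and citrate. An intron of SLC6A12, which encodes the betaine and GABA transporter BGT1, held 145 and 111 tags in sum on TCCA at chr12:306043-306530 (145 and 104 at the strongest peaks, fold 229.25 and 231.2). A HAL1-2a_MD element near SLC22A7, for the organic anion transporter OAT2, held 135 and 100 in sum at chr6:43261693-43262321 (135 and 88 at the strongest peaks, fold 84.74 and 45.68). An intergenic TCCA repeat at chr5:1166047-1166965 held 187 tags in 2 peaks of replicate 1 and 124 in 5 peaks of replicate 2, the strongest of which held 133 and 60. This last region named 3 carriers together, the potassium chloride cotransporter gene SLC12A7 and the amino acid transporter genes SLC6A18 and SLC6A19. The same annotation also named TERT and CTD-3080P12.3 for that region, and it listed 6 genes for the SLC22A7 region. An intron of SLC38A10, a member of a family of amino acid transporters, held 116 and 73 tags in sum on CACCAT at chr17:79227342-79227950 (103 and 59 at the strongest peaks). An intron of SLC13A5, for the sodium-coupled citrate transporter, held 60 and 49 on TGGA at chr17:6595382-6595659. At the annotated end of SLC45A1, classed as intergenic and without a repeat label, chr1:8404726-8405094 held 90 and 48 tags (fold 97.62 and 59.93). It was the only one of the 15 with no repeat label.

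The remaining strong regions were intergenic AGAT repeats. Near SLC25A3, the mitochondrial phosphate carrier gene, chr12:98973552-98974078 held 106 and 45 tags in single peaks. The annotation named 7 genes for that region, among them APAF1 and TMPO. Replicate 2 split that region into 3 peaks with 89 tags in sum. Near SLC24A3, for a sodium, calcium and potassium exchanger, chr20:19102595-19102901 held 43 and 53 tags (fold 147.14 and 82.4), and it was the only one of the 15 with the higher strongest peak in replicate 2. Its sums were 76 and 53, since replicate 1 had split it into 2 peaks.

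Across the 202 regions, summed tags in the replicates had a Pearson correlation of 0.886 and a Spearman correlation of 0.812 on the log2 scale, against 0.864 and 0.768 over the other autosomal regions. These correlations are descriptions over regions that share 2 libraries and 1 input, and all rest on regions called in both. After scaling to tags kept, 138 of the 202 regions held more tags in replicate 1, and the median ratio of replicate 2 to replicate 1 was 0.771, the same as over the other regions (0.771). The ratio was 0.803 for AGAT regions (0.792 over the others), 0.815 for ATCC regions (0.706) and 0.754 for ACC and ACCATC regions together (0.723). It was below 1 for 68.0% of ATCC regions of carriers and 77.7% of the others. The 7 HAL1-2a_MD regions had a median of 0.538 and all 7 were lower in replicate 2, against 0.672 and 81.3% of 337 other HAL1-2a_MD regions.

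Those 7 regions ranged widely. Besides the SLC22A7 and SLC22A11 regions, the element lay near SLC32A1, the vesicular GABA transporter gene, with 80 and 48 tags in sum, and near SLC6A17, a vesicular amino acid transporter gene, with 34 and 6. At the SLC30A4 locus it held 51 and 16 tags in sum. With 1 library for each value, the difference between the replicates has no error of its own.

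**Figure D4:**
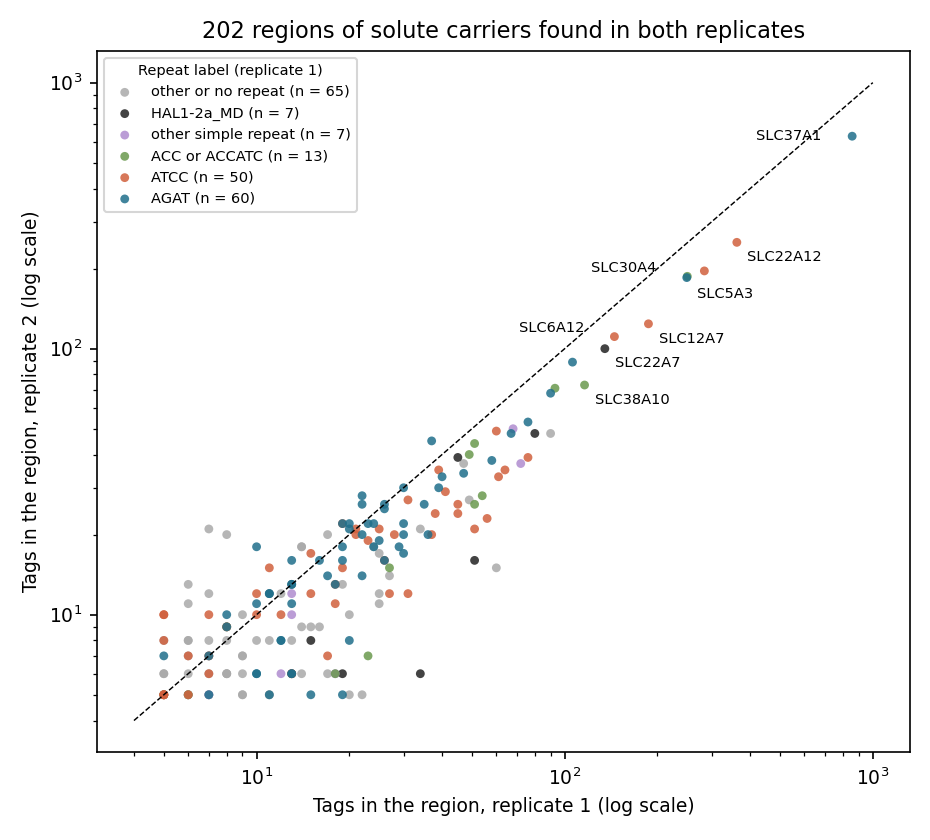
Tags summed over the peaks of each of the 202 shared regions in replicate 1 (x axis) and replicate 2 (y axis), both on log scales and coloured by the replicate 1 repeat label, with a dashed line at equal tags. Most points lie below the line, as 138 regions had more depth-scaled tags in replicate 1, and SLC37A1 stands highest in both.

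Few shared regions were classed as promoter or exon. The SLC22A11 promoter region, chr11:64320565-64320768, held 45 and 39 tags (fold 107.25 and 112.36) on HAL1-2a_MD. The SLC13A2 promoter region, chr17:26799848-26799923, held 12 and 12 tags (fold 80.32 and 122.39) at the annotated start of this sodium-coupled dicarboxylate transporter gene. The SLC26A8 promoter region, for an anion transporter of the testis, held 6 and 5 tags at chr6:35990909-35990968, near the lowest count in the lists. Both lists classed it as promoter. Its detailed label was intron 1 of 19 in replicate 1 and a TCCA repeat in replicate 2, so its place at the start is uncertain. The single exon region lay in the 3′ UTR of SLC6A17 at chr1:110742428-110742632, with 25 and 17 tags in sum (25 and 9 at the strongest peaks, fold 88.03 and 63.2). A further 2 promoter peaks, at SLC11A2 with 5 tags and SLC17A4 with 7, were called in replicate 1 alone.

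The annotated end of a second carrier also held shared regions. SLC15A1 encodes the intestinal peptide transporter PEPT1, and chr13:99335283-99335442 held 20 and 5 tags and chr13:99335793-99335889 held 17 and 6. Both were lower in replicate 2, and replicate 1 had 2 more weak peaks between them that replicate 2 lacked.

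Inside genes, 43 carriers held at least 1 shared region, and the 8 with most were ordered by the number of regions. SLC6A11, the GABA transporter GAT3 gene, held 5 shared intron regions at 2 loci, with 144 tags in replicate 1 and 87 in replicate 2 in sum. Its strongest, chr3:10915008-10915428, held 72 and 37 in sum on a CCTAT repeat, and the second, chr3:10928747-10928918, held 23 and 19 on TGGA. SLC9A9, for an endosomal sodium proton exchanger, held 4 regions with 88 and 65 tags, led by 58 and 38 on TAGA at chr3:143462008-143462313. SLC2A14, a glucose transporter gene and close paralogue of SLC2A3, held 4 with 73 and 54 tags. The sources used here do not say how reads that map to both paralogues were placed.

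SLC22A12 held the 3 regions given above. SLC6A3, the dopamine transporter gene, also held 3, with 188 and 93 tags in sum, on TCCA and TGGA repeats. SLC45A1, SLC2A10 and SLC6A6 held 3 each, with 87 and 65, 61 and 53, and 67 and 34 tags. SLC45A1 and SLC2A10 encode sugar transporters and SLC6A6 the taurine transporter. In 7 of these 8 genes the strongest region inside the gene lay on an AGAT or ATCC repeat, and in SLC6A11 it lay on CCTAT. These are the common labels of the lists, with 3803 AGAT and 2252 ATCC regions among 10076 other autosomal shared regions. With 8 genes chosen by their number of regions, the count is a description. The order takes no account of gene length.

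By family, the 155 carriers fell into 41 of the 56 autosomal families in RefSeq, and 34 families had a shared region. The gene counts below stand beside 29.6% of all autosomal carriers and 25.7% of other autosomal protein-coding genes with a shared region. A region that names carriers of several families was counted in each, as chr5:1166047-1166965 in SLC6 and SLC12. Gene length was not taken into account. SLC6 had most, with 24 shared regions at 16 loci naming 11 of its 17 autosomal genes, 15 of the regions inside a gene. SLC22 followed with 19 regions naming 9 of 21 genes, and with the largest sum of tags of any family, 1142 in replicate 1 and 787 in replicate 2, of which the SLC22A12 intron held 652 and 453. SLC25, the largest family with 43 genes, had 17 regions naming 9, and only 1 of those regions lay inside a gene. SLC30, the zinc exporters, had 14 regions naming 3 of 10 genes, and 7 of the 14 were the SLC30A4 locus.

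SLC2 had 14 regions naming 7 of 14 genes, with 10 inside a gene. Its strongest lay in an intron of the urate transporter gene SLC2A9, with 93 and 71 tags in sum on ATGGTG at chr4:9982474-9983013, where replicate 2 had 4 peaks of up to 37 tags. SLC35, which includes the nucleotide sugar transporters, had 13 regions at 13 loci, the strongest near SLC35F5 with 40 and 33 tags at chr2:114581630-114581826. SLC9, the sodium proton exchangers, had 12 regions naming 5 of 12 genes, and SLC5, which includes the sodium-coupled glucose transporters, had 10 naming 5 of 12, none of them inside a gene. The family order by regions therefore differed from the order by tags, in which SLC37 reached 1035 and 755 with 7 regions.

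**Figure D5:**
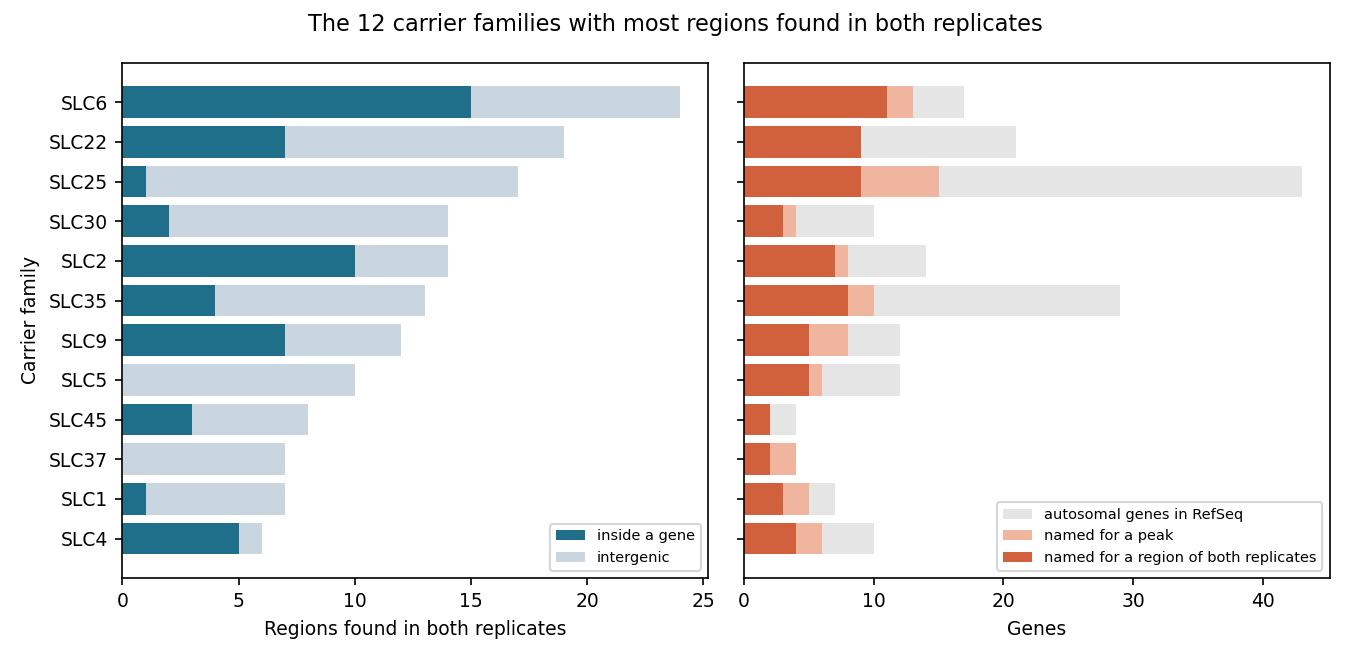
Number of shared regions (left x axis) inside genes and between genes, and number of genes (right x axis) that RefSeq lists, that were named for a peak and that were named for a shared region, for the 12 carrier families (y axis) with most shared regions. SLC6 has 24 regions, 15 of them inside genes, while all 10 of SLC5 and all 7 of SLC37 lie between genes.

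Of the 365 autosomal carrier symbols in RefSeq, 153 (41.9%, 37.0 to 47.0) were named for a peak of either list and 212 were not. Of the other autosomal protein-coding symbols, 38.6% were named, within that interval. For shared regions the shares were 108 of 365 (29.6%, 25.1 to 34.5) and 25.7%. The remaining 2 of the 155 carriers were listed under symbols that RefSeq holds as older names. Replicate 1 alone named 34 carriers and replicate 2 alone 8. Of the 113 named in both lists, 3 had no overlapping peaks, among them the vesicular acetylcholine transporter gene SLC18A3.

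Of 18 carriers known from red cell, iron and haem biology, 10 were named (55.6%) and 6 had a shared region (33.3%), beside 38.6% and 25.7% of the other autosomal protein-coding genes and 41.9% and 29.6% of all carriers. These shares are the background for each list that follows. SLC4A1 held 2 shared intron regions, chr17:42333232-42333390 with 13 and 13 tags and chr17:42333465-42333576 with 17 and 7. The fold of the first was 29.24 and 19.69, below the median of carrier peaks. SLC25A37 had a nearby region with 19 and 13 tags on an Alu element. SLC30A10, a manganese exporter gene, had the strongest region of the list, chr1:219989494-219989649, with 37 and 45 tags on TAGA (fold 173.14 and 195.87). The region near SLC40A1, for the iron exporter ferroportin, held 14 and 9. SLC2A1, SLC25A38, SLC11A2 and SLC39A8 were named without a shared region, and the other 8 genes were not named.

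Of 10 glutamate carriers, 6 were named (60%, beside 38.6% of other genes) and 4 had a shared region (40%, beside 25.7%). SLC1A1, for the glutamate transporter EAAT3, had the strongest, chr9:4437365-4437484 with 47 and 34 tags on TCTA. SLC1A5, for the glutamine transporter ASCT2, had 24 and 18 at chr19:47307838-47307932. SLC1A3 (15 and 8) and SLC17A6 (19 and 5) were weaker. All 4 of these strongest regions were intergenic.

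Of 12 amine and GABA carriers, 9 were named (75%, beside 38.6% of other genes) and 6 had a shared region (50%, beside 25.7%). With so few genes in a list these shares are descriptions. Among these were SLC6A12, SLC6A11 and SLC6A3 with regions in their introns, and SLC6A13 and SLC32A1 with intergenic regions. The region chr12:326342-326639, with 64 and 35 tags on TGGA, named SLC6A12 and its neighbour SLC6A13 together. SLC6A2, SLC18A1 and SLC18A3 were named without a shared region.

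Of 10 glucose and lactate carriers, 4 were named (40%) and 2 had a shared region (20%), near SLC2A2 with 26 and 16 tags and near SLC2A3 with 22 and 26. SLC2A1, the glucose transporter of red cells, had 1 peak of 6 tags, in replicate 1 alone, and SLC16A1, a lactate transporter gene, 1 of 5 tags. Of 9 autosomal amino acid carriers studied in leukaemia and lymphoid cells, 3 were named and all 3 had a shared region (33.3%), SLC1A5, SLC7A5 with 13 and 13 tags, and SLC7A1 with 8 and 6. The 5 lists had 2 to 6 genes with a shared region each, and the 2 lists of glutamate and amino acid carriers have SLC1A5 in common.

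Carrier peaks found in 1 replicate were weak. The 5 unshared carrier peaks with most tags in replicate 1 held 16 to 24 tags. They lay near SLC50A1 (24 tags, fold 70.03), SLC35C2 (19), SLC20A1 (17) and SLC6A16 (16), and in an intron of SLC13A5 (16). All 5 lay 3 to 69 bp from a shared region that named the same carrier. In replicate 2 the 5 strongest unshared peaks held 8 to 12 tags, near SLC25A16 (12) and SLC4A11 (10), and in introns of SLC6A3 (11 and 9) and SLC1A1 (8). Those in SLC6A3 lay 595 and 519 bp from a shared region of that gene, and the one in SLC1A1 lay 59 bp away. None of the 204 and 51 unshared carrier peaks exceeded 24 tags. Among the far more numerous other autosomal peaks, unshared ones reached 1950 tags in replicate 1 and 882 in replicate 2. The medians were alike, 6 and 5 tags for carriers and 6 and 6 for the others.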

How the data were processed

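Peak lists of 2 YBX1 ChIP libraries of HEL cells were used. The tools were MACS 1.4, Bowtie2, Trimmomatic 0.36 and bcl2fastq 02.14.01.07, and the build was hg19, per the submitters' processing notes. Per the file headers, MACS 1.4.2 called each replicate separately against 1 input, with a p-value cutoff of 1e-05, a shift d of 20 bp, a tag size of 36 bp and 1 tag kept per position. The authors then filtered and annotated the lists by a rule not given in the sources used here. In the header of the replicate 2 list the alignment is numbered otherwise than in its label, which was followed.

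The deposited lists give per peak a count of tags, a score (10 times the negative log10 of p), a fold enrichment, which is the authors' ratio to local background, and a false discovery rate in percent. Widths and summits are deposited in bp. The shift is shorter than a tag, so widths and folds do not measure the extent of binding.

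Position, genes and repeats are the authors' annotation. Peaks overlapping by at least 1 bp were shared and merged into regions, using Python 3.11.15, pandas 2.3.3 and scipy 1.17.1. The code was tested on simulated data. A fold within 0.006 of a whole multiple of the genome-wide level counted as that level. Repeat units were joined over rotations and strands. Shares carry 95% Wilson intervals, and no test between groups exists with 1 group of 2 libraries.

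Members and gene lists were chosen with earlier results of these data known. Named with values were the 15 shared regions with the highest lower tag count, all promoter and exon regions, the 8 genes with most shared regions inside, the 8 families with most, the 5 strongest unshared peaks per replicate, the gene lists, and units with at least 3 regions. The other regions named were chosen after their values were seen. Alternatives covered the p-value, the overlap, the position, peaks naming 1 gene, counting regions, joining loci, and leaving out a replicate. RefSeq GRCh38.p14 served for names and promoter windows only.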

Additional observations from a re-analysis of the deposited data

How the results depend on the processing

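Of 42 alternatives over 9 results, 25 left the value inside its interval, or a count within 1.5 times, and 17 moved it. Keeping only peaks with p of at most 1e-10 raised sharing to 57.9% in replicate 1 and 87.3% in replicate 2, raised tandem repeats to 65.1% and 73.5%, and left 118 shared regions. Requiring summits at most 100 bp apart gave 76.7% sharing in replicate 2. Keeping only peaks in a promoter, exon or intron gave 53.7% on tandem repeats in replicate 1, 67 named carriers, 43 carriers with a shared region and 72 shared regions. Keeping only peaks that name 1 gene gave 81.9% and 84.7% inside a gene, 74 named carriers, 51 with a shared region and 90 shared regions. Counting shared regions in place of peaks gave 64.4% on tandem repeats in replicate 1, and joining peaks at most 1000 bp apart, an alternative chosen after seeing the data, gave 55.0%. Leaving out 1 replicate gave 121 to 147 named carriers. No paired analysis was possible because the 2 YBX1 libraries form 1 group and the input is a single library. Most carrier peaks held under 10 tags, so absence from 1 list is not detectable as absence from the chromatin. The sources used here do not say how reads of repeats that map to several places were treated.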

Other observations

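Of the 202 shared regions, 3 had a fold enrichment under 20 in both replicates, and they were chosen after their values were seen. Near SLC1A1, chr9:4437147-4437359 held 27 and 14 tags with folds of 17.49 and 14.12, beside the TCTA region of the same locus with folds of 87.35 and 63.43. In an intron of SLC1A1, chr9:4494181-4494266 held 13 and 6 tags with folds of 18.74 and 15.53. Near SLC19A1, the reduced folate carrier gene, chr21:47054543-47054619 held 8 and 6 tags with folds of 18 and 17.73.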
